A study of Homo sapiens with 27 samples.

Results

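The EGF and OSM interaction was measured in 12 of the 27 libraries of the series: 3 each of cells given PBS, EGF, OSM, or EGF and OSM together. The libraries were taken by their labels, and the interaction was the contrast EGF+OSM minus EGF minus OSM plus PBS of the log2 group means. All came from MCF10A, an established human mammary epithelial cell line that does not form tumours. It is 1 line, grown in medium with 20 ng/ml EGF, horse serum, hydrocortisone, cholera toxin and insulin. Cells were then held for 18 h without added growth factors and treated for 24 h with 10 ng/ml EGF, 10 ng/ml OSM, both at these doses, or phosphate-buffered saline (PBS) as the control. Untreated cells at 0 h (T0), after the same 18 h without added growth factors, served as another baseline. Cells given 10 ng/ml TGFB for 24 h, alone or with EGF, OSM or both at these doses, served for comparison. The labels do not say whether replicates were separate cultures, so p-values measure the spread between these libraries, which may be technical. The comparison asked which gene programmes of the pair exceeded, fell short of or opposed the sum of the single responses.

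Epidermal growth factor (EGF) binds the receptor EGFR and drives the RAS-ERK and PI3K pathways, on which MCF10A cells depend for growth in culture. Oncostatin M (OSM) is one of the interleukin-6 cytokines; it binds OSMR or LIFR together with IL6ST (gp130) and activates JAK kinases and the transcription factor STAT3. OSM receptors also feed the ERK pathway, and both pathways induce their own inhibitors, such as the ERK phosphatase DUSP6 and the JAK inhibitor SOCS3.

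The 12 libraries held 35.2 to 46.9 M (mega) estimated counts. Levels below are counts per 1 M counts (CPM). Log2 values of replicates correlated at 0.985 to 0.990 across genes, and replicates of each group differed by more than sampling noise (chi-square per degree of freedom 8.26 to 31.4), so each library was kept as its own replicate. The basal keratin KRT5 was lowest with EGF, at 4064 CPM, and highest with OSM, at 7053 CPM, in the group means, and TP63, a basal transcription factor, at 86.7 to 188 CPM. CDH3 followed the same order, at 469 CPM with EGF and 1445 CPM with OSM. The other basal markers did not: CAV1 was highest with EGF (650 CPM) and lowest with OSM (340 CPM). KRT14, CD44, EGFR and VIM were lowest in PBS, at 660, 395, 393 and 418 CPM. Luminal markers were present too and summed to 549.5 to 1339 CPM: the luminal keratin KRT8 was at 146 to 262 CPM, KRT18 at 116 to 416 CPM, the mucin MUC1 at 131 to 824 CPM and the luminal transcription factor GATA3 at 11.7 to 26.3 CPM in the group means. PGR, which marks hormone-responsive luminal cells, was listed at 0 in all 12 libraries, and ELF5 and KIT, markers of luminal progenitors, did not pass 0.075 CPM in any of them. Of the other luminal markers, ESR1 was at 0.669 to 2.76 CPM and FOXA1 at 2.58 to 8.08 CPM in the group means. KRT19 and PRLR reached at most 0.753 and 0.904 CPM in a library. Leukocyte markers summed to 26.3 to 119 CPM, with NKG7 listed at 0 and the monocyte marker CD14, which epithelium can also express, at 6.55 to 63.6 CPM in the group means. Summed endothelial markers were at 31.2 to 35.3 CPM in PBS and 1.81 to 3.94 CPM in the other groups; in PBS nearly all of this was KDR, described below, and PECAM1 did not pass 2.06 CPM. The part of these markers in the results was not tested.

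The departure of a gene is its log2 fold change with EGF+OSM minus the sum of its log2 fold changes with EGF and with OSM, and is 0 when fold changes multiply. All 3 fold changes are against the same PBS libraries. It was called for 6061 of 16611 genes tested (36.5%) by the quasi-likelihood test of edgeR, with Benjamini-Hochberg adjusted p below 0.05. Of these, 2423 lay above the sum (14.6% of genes tested) and 3638 below it (21.9%). Departures of at least 1 on the log2 scale numbered 1639 (9.87%). In bulk libraries, fewer cells of a type and less RNA per cell cannot be told apart.

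Called genes were sorted by the sum itself, which was called for 69.5% of genes, upwards in 34% and downwards in 35.5%. Most fell short: 5389 genes (32.4% of genes tested and 88.9% of those called) departed against the sum, without EGF+OSM being called on the other side of PBS. They include genes whose EGF+OSM value lay past PBS without a call. Examples are AMTN (-0.69 with EGF+OSM, sum 4.31) and ADM (0.21, sum -1.69). A further 152 (0.915%) exceeded the sum, 30 above an upward sum and 122 below a downward sum. Only 62 (0.373%) opposed it, with EGF+OSM called on the other side of PBS: 19 higher and 43 lower than PBS. For the remaining 458 (2.76%) the sum was not called. The EGF, OSM and PBS libraries enter the sum and the departure with opposite signs. Error in these libraries therefore pushes departures against the sum, which favours falling short over exceeding. How much of the class counts comes from this was not tested, so they are given as descriptions. Counts of the rare classes depended on single libraries, from 96 genes exceeding the sum without EGF+OSM replicate 3 to 186 without OSM replicate 3, and from 33 opposing it without PBS replicate 2 to 70 without OSM replicate 3. The scatter of measured against summed responses shows this order.

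**Figure D1:**
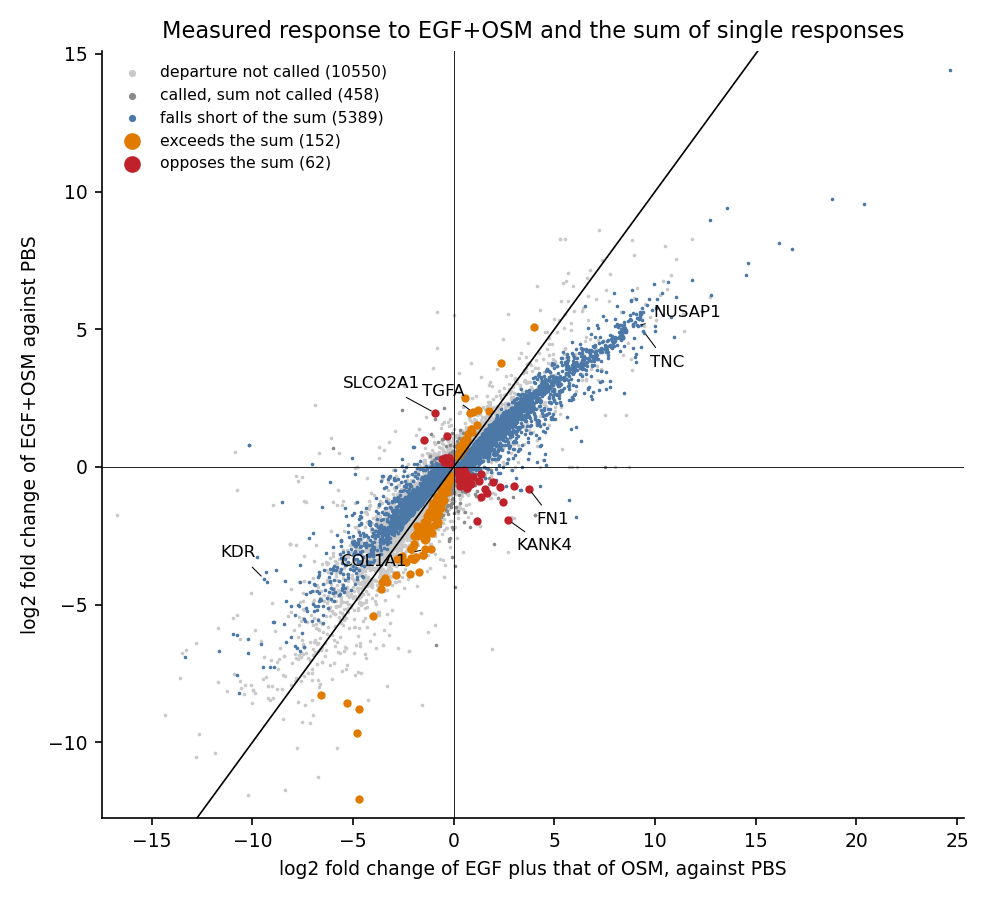
Measured log2 fold change of EGF+OSM against PBS (vertical axis) and the summed single log2 fold changes, EGF plus OSM (horizontal axis), for the 16611 genes tested, coloured by class; the line marks equality. Most of the 6061 called genes lie between the line and the horizontal axis, 152 lie beyond the line and 62 were called on the opposite side of 0. Extreme values of genes with few counts depend on the prior count.

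Departures were also counted by the direction of the single responses. This sorting used EGF, OSM and PBS values that enter the departure with the opposite sign. The splits below are therefore partly set by the sorting and are descriptions. EGF alone changed 11762 genes (70.8%; 33.8% up, 37% down), OSM alone 10129 (61%; 32.4% up, 28.5% down) and the pair 12456 (75%; 36.6% up, 38.4% down). Both ligands raised 4143 genes; 2890 of these departed below the sum and 6 above it. In the same 4143 genes EGF+OSM was above both single ligands in 1151 and below both in 65. Both ligands lowered 3821 genes, of which 1836 departed above the sum, 52 departed below it, and 1309 ended below both single ligands. Among 3397 genes that neither ligand changed by the test, 152 departed (4.47%), 79 upwards and 73 downwards. Over all genes the pair was above both single ligands in 1463 (8.81%) and below both in 1708 (10.3%); without EGF+OSM replicate 3 the first count was 919.

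Each ligand did less in the presence of the other. EGF changed 9874 genes when added to OSM (59.4%; 28.7% up, 30.7% down), and the median size of its log2 effect over all genes was 0.589 alone and 0.402 with OSM. OSM changed 5481 genes when added to EGF (33%; 16.6% up, 16.4% down), with a median size of 0.418 alone and 0.205 with EGF. Some effects turned over: of 8515 genes that EGF changed both alone and with OSM, 511 (6%) moved in opposite directions, 318 of them up alone and down with OSM. For OSM these were 365 of 4541 (8.04%), 244 of them up alone and down with EGF. The 2 effects of a ligand share no library.

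The clearest opposition was in the extracellular matrix gene FN1 and the cytoskeletal regulator KANK4, with LBH, a transcription cofactor of mammary basal cells, and the gelatinase MMP9. These 4 had the largest downward departures among opposing genes that reached 5 CPM in a group. Their levels are drawn by library in the plot of 12 genes.

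FN1 (fibronectin; ENSG00000115414, chromosome 2, 215360440 to 215436073, minus strand; GENCODE v44 on GRCh38, whole gene span) was at 144, 111 and 141 CPM in the PBS libraries, 722, 707 and 514 CPM with EGF, 420.1, 344 and 304 CPM with OSM and 87.2, 88.5 and 52.9 CPM with EGF+OSM. Either ligand alone put every library above PBS, and the pair put every library below PBS. The departure was -4.52 ± 0.26 (SE) (edgeR adjusted p 2.9e-11), and EGF, which raised FN1 by 2.30 on the log2 scale alone, changed it by -2.22 ± 0.18 (SE) when OSM was present.

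KANK4 (ENSG00000132854, chromosome 1, 62236165 to 62319434, minus strand) was at 7.12, 6.37 and 8.61 CPM in the PBS libraries, 11, 10.7 and 9.92 CPM with EGF, 39.4, 35.5 and 26.1 CPM with OSM and 2.47, 2.21 and 1.11 CPM with EGF+OSM. The pair lay under every PBS library although EGF and OSM each lay over them. Its departure was -4.65 ± 0.29 (SE) (edgeR adjusted p 6.2e-11), and the EGF effect went from 0.52 alone to -4.13 with OSM.

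LBH (ENSG00000213626, chromosome 2, 30231534 to 30323730, plus strand) was raised mainly by OSM, at 4.27, 4.71 and 4.45 CPM in the PBS libraries, 7.33, 7.27 and 5.35 CPM with EGF, 25.8, 24.2 and 22.9 CPM with OSM and 4.04, 2.54 and 1.72 CPM with EGF+OSM. All 3 EGF+OSM libraries were under the lowest PBS library, and the departure was -3.72 ± 0.27 (SE) (edgeR adjusted p 6.3e-10). MMP9, which degrades basement membrane collagen, averaged 6.2 ± 1.95 CPM with PBS, 24.2 ± 4.67 under EGF, 3.56 ± 0.151 under OSM and 1.59 ± 0.653 under both (SD, n = 3). It was raised by EGF, lowered by OSM and lowest with the pair, with a departure of -3.12 ± 0.41 (SE).

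**Figure D2:**
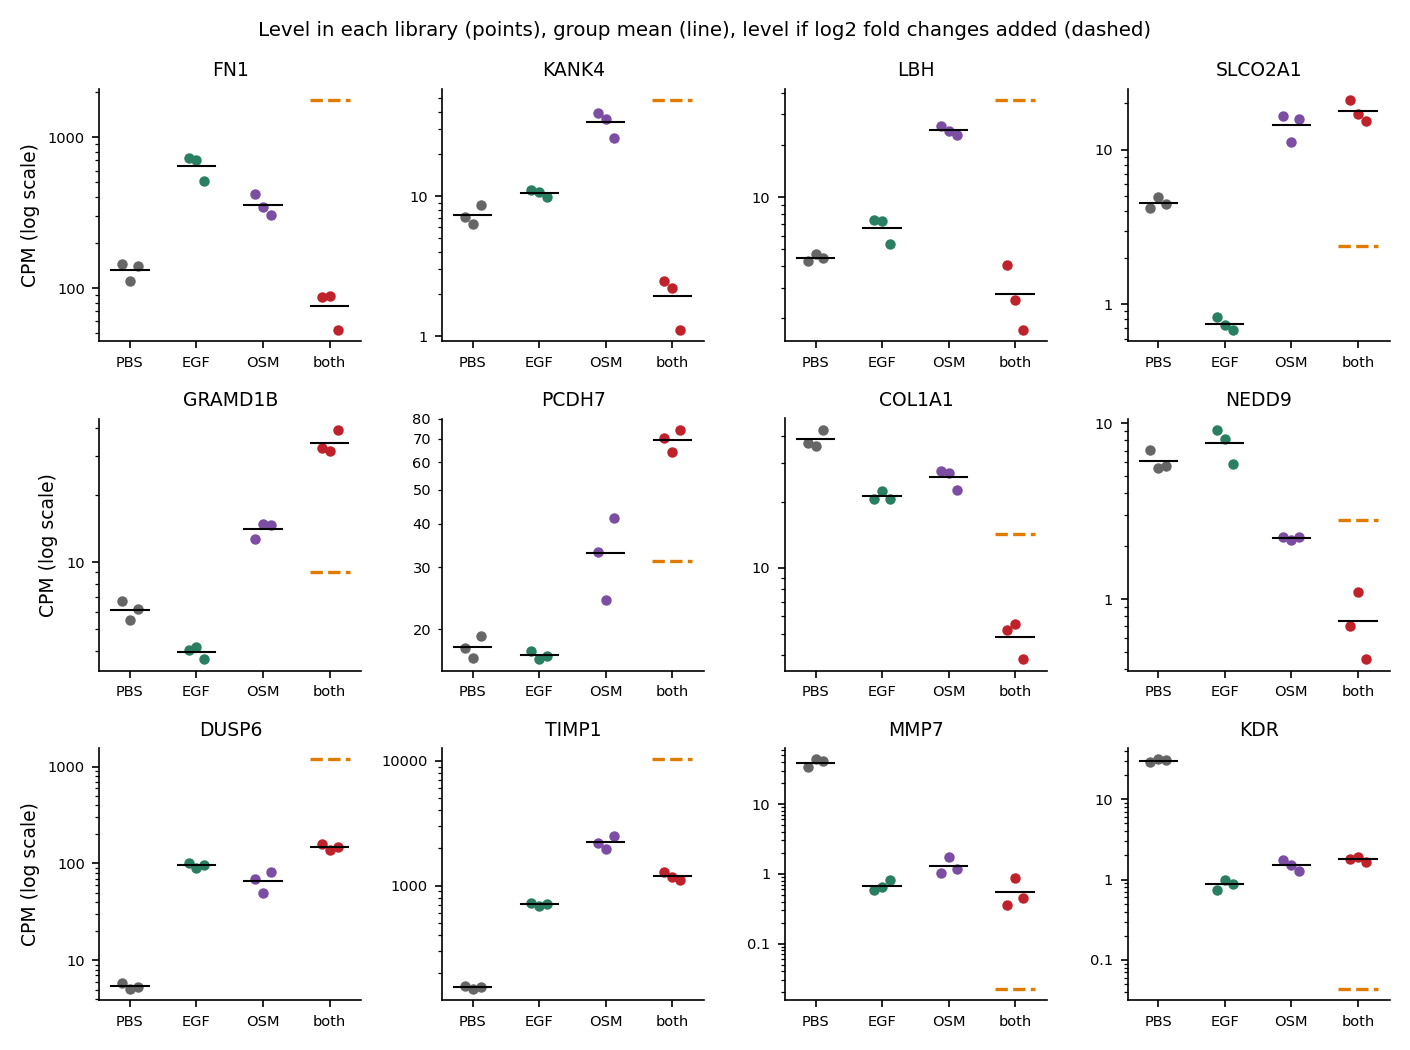
CPM in each library (points, log axis), group mean (black line) and the level at which log2 fold changes would add (dashed orange) for 12 genes in PBS, EGF, OSM and both. The pair lies under PBS in FN1, KANK4 and LBH, over the dashed line in SLCO2A1, GRAMD1B and PCDH7, under it in COL1A1, NEDD9, DUSP6 and TIMP1, and near the single ligands but far over the dashed line in MMP7 and KDR.

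The 250 bases before the start of KANK4, first by size in the opposing class, and of FN1 are shown to let the motif counts be read (RefSeq, GRCh38.p14, in gene orientation; FN1 was chosen after its values were seen). Neither holds TTCNNNGAA, used as the STAT motif, or TGANTCA, used as the AP-1 motif of FOS-JUN factors, on either strand. The middle letter of the AP-1 motif was left free in the search.
KANK4 (chr1:62319435-62319684, minus strand): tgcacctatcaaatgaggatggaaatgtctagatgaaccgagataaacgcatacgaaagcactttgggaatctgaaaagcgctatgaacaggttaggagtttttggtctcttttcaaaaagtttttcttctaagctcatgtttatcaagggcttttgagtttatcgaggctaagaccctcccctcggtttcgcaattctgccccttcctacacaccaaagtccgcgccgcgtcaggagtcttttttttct
FN1 (chr2:215436069-215436318, minus strand): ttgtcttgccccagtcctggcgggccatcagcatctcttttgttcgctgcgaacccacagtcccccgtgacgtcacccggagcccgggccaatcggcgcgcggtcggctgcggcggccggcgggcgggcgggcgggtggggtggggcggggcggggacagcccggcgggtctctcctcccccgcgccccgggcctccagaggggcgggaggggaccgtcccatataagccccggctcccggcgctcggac

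Within 300 bases around the start (250 before, 50 after), 0 of the 28 genes with a promoter entry among those opposing downwards held the STAT motif and 0 the AP-1 motif, beside 6.3% and 5.15% of 11388 protein-coding genes tested that had an entry, and 7.88% and 7.76% of all 27303 promoters. In the list of STAT3 targets, 5 of 18 (27.8%) held the STAT motif. Both motifs are palindromes apart from N, so a match on one strand is also a match on the other. No match says only that these letters are not in the window.

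Opposition upwards was smaller. SLCO2A1, a prostaglandin transporter, was at 4.2, 4.95 and 4.45 CPM in the PBS libraries, 0.825, 0.739 and 0.684 CPM with EGF, 16.4, 11.2 and 15.9 CPM with OSM and 20.8, 16.9 and 15.3 CPM with EGF+OSM. EGF alone put it under PBS, OSM alone over it, and the libraries of the pair overlapped those of OSM; the departure was 2.89 ± 0.29 (SE) (edgeR adjusted p 4.9e-08). With the untreated 0 h cells in place of PBS it was 0.80 and not called (adjusted p 0.086). SOX15, NEK7 and TACC1 were lowered by OSM alone and were higher than PBS with the pair. SOX15, a SOX-family transcription factor, averaged 32.3 ± 1.91 CPM with PBS, 34.6 ± 1.79 under EGF, 20.4 ± 1.25 under OSM and 39.4 ± 1.99 under both (SD, n = 3), a departure of 0.86. NEK7, a mitotic kinase that also takes part in the inflammasome, departed by 0.79 and TACC1, a centrosomal coiled-coil protein, by 0.70. EGF alone did not change SOX15 or NEK7 by the test, and the pair was above both single ligands. EGF alone raised TACC1 by 0.21 on the log2 scale (edgeR adjusted p 0.011). There the pair was not told from EGF (edgeR adjusted p 0.24).

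Genes that exceeded an upward sum were few and modest. GRAMD1B, which moves cholesterol between membranes (ENSG00000023171, chromosome 11, 123358428 to 123627774, plus strand), was at 6.67, 5.51 and 6.19 CPM in the PBS libraries, 4.01, 4.15 and 3.67 CPM with EGF, 12.7, 14.8 and 14.6 CPM with OSM and 32.5, 31.5 and 39.2 CPM with EGF+OSM. EGF alone was under PBS, OSM alone over it and the pair over all other libraries. Its departure was 1.92 ± 0.17 (SE) (edgeR adjusted p 2.7e-09), so that EGF lowered GRAMD1B alone (-0.63) and raised it with OSM (1.29).

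PCDH7, a protocadherin of the cell surface, was at 17.7, 16.6 and 19.1 CPM in the PBS libraries, 17.3, 16.4 and 16.7 CPM with EGF, 33.3, 24.3 and 41.6 CPM with OSM and 70.5, 64 and 74.2 CPM with EGF+OSM. EGF alone matched PBS within the spread of libraries, and the pair stood over the highest OSM library. The departure was 1.16 ± 0.17 (SE) (edgeR adjusted p 1.4e-05). CALCRL, the receptor subunit for adrenomedullin and CGRP, averaged 0.378 ± 0.0297 CPM with PBS, 0.326 ± 0.107 under EGF, 2.27 ± 0.565 under OSM and 5.15 ± 0.531 under both (SD, n = 3), a departure of 1.39 ± 0.37 (SE). The protease ADAMTS1 departed by 1.09 ± 0.39 (SE), a call (edgeR adjusted p 0.032) lost without PBS replicate 1 (departure 0.67, adjusted p 0.23), OSM replicate 1 or 2, or EGF+OSM replicate 3, or with untreated cells at 0 h (T0) in place of PBS (0.99, adjusted p 0.062).

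TGFA, a ligand of EGFR, was 1 of 5 genes in this class with a departure of at least 1 on the log2 scale, and was named after its values were seen. It was at 61.3, 64.8 and 63.1 CPM in the PBS libraries, 104, 101 and 102 CPM with EGF, 71.1, 64 and 88.9 CPM with OSM and 267, 241 and 246 CPM with EGF+OSM. OSM alone raised it slightly, and the pair was over every EGF library; the departure was 1.05 ± 0.12 (SE) (edgeR adjusted p 3.5e-07).

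Below a downward sum, COL1A1, the main chain of type I collagen, was at 37.4, 36.1 and 42.7 CPM in the PBS libraries, 20.7, 22.4 and 20.7 CPM with EGF, 27.8, 27.2 and 22.7 CPM with OSM and 5.2, 5.52 and 3.82 CPM with EGF+OSM. Each ligand alone lowered it, and the pair stood far under both, with a departure of -1.55 ± 0.16 (SE) (edgeR adjusted p 2.9e-08). NEDD9, an adhesion scaffold protein, averaged 6.1 ± 0.8 CPM with PBS, 7.75 ± 1.68 under EGF, 2.22 ± 0.0428 under OSM and 0.751 ± 0.322 under both (SD, n = 3), a departure of -1.89 ± 0.29 (SE). OSM alone lowered NEDD9, and EGF, 0.35 alone, changed it by -1.54 with OSM.

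A pair of genes in this class ended near 0. TMEM265 was listed at 0 in all 3 EGF+OSM libraries, against 13.2 ± 2.68 CPM with PBS, 2.81 ± 1.45 under EGF and 2.32 ± 2.01 under OSM. With the pair set to 3 counts over the group, the log2 departure was -4.30 or lower. OSM replicate 1 was also at 0, and the call (edgeR adjusted p 0.04) was lost in each refit without another single library except EGF replicate 3, PBS replicate 2 or OSM replicate 1. NKPD1 was at 0.0271, 0.0466 and 0.0253 CPM with the pair and 11.5 ± 0.975 CPM in PBS. Its call (edgeR adjusted p 0.031) was lost without EGF replicate 2, OSM replicate 1 or 2, or any EGF+OSM replicate.

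The genes named for the largest departures among those that fell short came from several patterns. In some, each ligand alone already put the gene far under PBS. KDR, the VEGF receptor best known from endothelium, was at 28.6, 31.2 and 30.7 CPM in the PBS libraries, 0.736, 0.999 and 0.88 CPM with EGF, 1.76, 1.53 and 1.27 CPM with OSM and 1.79, 1.91 and 1.67 CPM with EGF+OSM. All treated groups were far under PBS, and the pair was no lower than the single ligands. The departure was 5.34 ± 0.23 (SE) (edgeR adjusted p 3.2e-14). MMP7, the matrilysin of glandular epithelium, averaged 39.3 ± 5.08 CPM with PBS, 0.675 ± 0.118 under EGF, 1.31 ± 0.385 under OSM and 0.556 ± 0.269 under both (SD, n = 3) and departed by 4.64 ± 0.54 (SE). MAP7D2, a microtubule-binding protein, fell from 12.4 ± 1.99 CPM in PBS to 0.0919 with EGF, 0.154 with OSM and 0.0989 with both, and the chloride channel gene BEST2 from 22.2 ± 8.39 CPM to 0.937, 0.164 and 0.217 CPM. For MMP7, MAP7D2 and BEST2 the level expected from the sum was under 3 counts over the group. A fall as large as the sum could hardly be measured there, so the size of these departures is limited by few counts.

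In others, each ligand alone raised the gene from near 0. COL6A3, a chain of type VI collagen, was at 0.674, 0.452 and 0.587 CPM in the PBS libraries, 49.5, 44.4 and 49.8 CPM with EGF, 34.4, 24.4 and 45.1 CPM with OSM and 33.1, 26.4 and 26.5 CPM with EGF+OSM. All 9 treated libraries were at 24.4 CPM or more, the pair lay within the range of the OSM libraries and under every EGF library, and the departure was -6.66 ± 0.34 (SE) (edgeR adjusted p 4.9e-12). TNFRSF6B also started from 0, but its level rose further with the pair, by 3.03 over EGF alone (edgeR adjusted p 3.1e-08) and by 1.16 over OSM alone (adjusted p 3.8e-04) on the log2 scale. This gene, a decoy receptor for FAS ligand that overlaps transcripts of RTEL1, had 0 counts in PBS, 8.35 ± 1.83 CPM under EGF, 30.6 ± 6.64 under OSM and 68.2 ± 9.44 with the pair. With PBS set to 3 counts over the group the log2 departure was -7.31, while its level with the pair was over both single ligands together. On the linear scale described below its departure was 0.81, with no usable error because PBS was at 0, so it is called as falling short for fold changes only.

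The stromelysins MMP3 and MMP10, which degrade matrix and activate other proteases, differed in their main inducer. MMP10 was at 0.0651 ± 0.0535 CPM in PBS, 11, 8.65 and 7.5 CPM with EGF, 1.02, 0.709 and 1.13 CPM with OSM and 3.22, 1.05 and 1.01 CPM with the pair, and OSM changed it by -2.38 ± 0.37 (SE) when EGF was present (edgeR adjusted p 3.6e-05). MMP3 had 1 count in PBS and was at 10.0, 11.4 and 6.46 CPM with OSM against 0.732, 0.698 and 1.09 CPM with the pair, an EGF effect of -3.47 ± 0.26 (SE) (edgeR adjusted p 6.1e-10). MMP10 was highest with EGF and MMP3 with OSM, and each was lower in every library when the other ligand was added.

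MMP7 and MMP10 lie on the same strand of chromosome 11 and departed in opposite directions. Their upstream 250 bases are shown because each holds 1 AP-1 motif (capitals), starting 67 bases before the start site in both (RefSeq, GRCh38.p14, gene orientation; chosen after their values were seen). The middle letter, free in the motif as searched, is G in MMP7 and A in MMP10, so the stretches are not identical. The AP-1 motif was found in 3 of 11 protease-list promoters (27.3%), and a match is a description of letters, not of binding.
MMP7 (chr11:102530748-102530997, minus strand): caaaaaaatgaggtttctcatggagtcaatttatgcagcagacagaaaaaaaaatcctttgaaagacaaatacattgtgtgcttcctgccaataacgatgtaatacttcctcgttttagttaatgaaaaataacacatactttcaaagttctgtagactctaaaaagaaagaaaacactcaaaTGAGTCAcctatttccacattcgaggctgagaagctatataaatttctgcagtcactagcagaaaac
MMP10 (chr11:102780629-102780878, minus strand): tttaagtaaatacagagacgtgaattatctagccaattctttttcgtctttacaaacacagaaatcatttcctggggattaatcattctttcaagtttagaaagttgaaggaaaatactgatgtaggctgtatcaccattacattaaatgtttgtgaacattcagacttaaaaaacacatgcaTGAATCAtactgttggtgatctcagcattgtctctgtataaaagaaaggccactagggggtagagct

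Because a shortfall of fold changes can still be a surplus of transcripts, the pair was also set against the linear sum EGF plus OSM minus PBS. On that scale 4134 genes departed (24.9%), 1440 above (8.67%) and 2694 below (16.2%). For 2020 genes the linear sum was 0 or less, as happens when both ligands lower a gene strongly. Of the 2890 genes raised by both ligands and short of the log2 sum, 1769 were also below the linear sum and 16 were above it. All 43 genes that opposed downwards were below the linear sum, all 19 that opposed upwards were above it, and of the 30 that exceeded upwards 25 were above it and 1, SEMA4B, below.

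The gene lists below were compiled from general knowledge with earlier results of these data known. Counts are of members tested and are given beside the 14.6% of all genes above and 21.9% below the sum. These shares hold for PBS as baseline. Counts with T0 as baseline are given without the share of all genes and are descriptions only. The median departure of all genes was -0.01. Genes named because 5 or fewer members of a list lay on 1 side of the sum, or named as a list's other examples without meeting the size rule, were chosen after their values were seen.

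Among ligands and receptors of both pathways, 6 of 23 tested departed above and 8 below, with a median of -0.26 (-0.08 with a member of 3 counts or fewer at its bound, and -0.17 without OSM replicate 2 or EGF+OSM replicate 3). OSMR, the OSM receptor chain, was at 84, 79.8 and 75.7 CPM in the PBS libraries, 158, 155 and 145 CPM with EGF, 577, 586 and 503 CPM with OSM and 381, 384 and 336 CPM with EGF+OSM. OSM alone was highest and the pair lay between OSM and EGF, with a departure of -1.53 ± 0.10 (SE) (edgeR adjusted p 2.9e-11). EGFR rose alike with EGF (522 ± 34.1 CPM), OSM (521 ± 22.4) and both (512 ± 17.5) from 393 ± 17.9 CPM in PBS, a departure of -0.44 that was -0.15 (adjusted p 0.17) with T0 as baseline.

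IL6ST departed by -0.08 ± 0.07 (SE) and LIFR by -0.28 ± 0.19 (SE), neither called (edgeR adjusted p 0.41 and 0.27). AREG, the EGFR ligand amphiregulin, rose from 10.8 ± 1.33 CPM to 280.2 ± 26.6 with EGF and 59.8 ± 19.2 with OSM and was at 357 ± 38.9 with the pair (SD, n = 3), a departure of -2.13 on the log2 scale (-0.77 and not called with T0, adjusted p 0.072) and 0.12 on the linear scale. EPGN, another EGFR ligand, averaged 105 ± 12.5 CPM with PBS, 66.6 ± 5.49 under EGF, 38.1 ± 8.7 under OSM and 64.4 ± 11.5 under both, lower with OSM alone than with the pair, and departed by 1.42 ± 0.22 (SE).

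Of 20 ERK targets and feedback inhibitors, 12 departed below and 0 above, with a median of -0.74. The median EGF effect was 1.67 alone and 1.00 with OSM, the median OSM effect with EGF was 0.27, and 7 members were above both single ligands. DUSP6 was at 5.82, 5.1 and 5.26 CPM in the PBS libraries, 102, 89.2 and 96.6 CPM with EGF, 68.7, 49.8 and 81.1 CPM with OSM and 158, 137 and 148 CPM with EGF+OSM. The pair was over every single-ligand library and far under the product of the single effects, with a departure of -3.00 ± 0.25 (SE) (edgeR adjusted p 7.5e-09) but a linear departure of -0.09.

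EGR1, an early-response transcription factor, was at 28, 27.5 and 33.1 CPM in the PBS libraries, 112, 106 and 106 CPM with EGF, 111, 83.7 and 116 CPM with OSM and 56.4, 53.7 and 55.9 CPM with EGF+OSM. The pair lay between PBS and either ligand alone, a departure of -2.78 ± 0.24 (SE) (edgeR adjusted p 9.5e-09) and a linear one of -1.72. ETV5, an ERK-induced ETS factor, was at 45.8 ± 2.97 CPM with EGF and 47.6 ± 1.16 with the pair, and the receptor inhibitor ERRFI1 departed by -0.26 ± 0.19 (SE), not called (edgeR adjusted p 0.31).

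STAT3 targets and SOCS genes (21 tested) had 8 below and 3 above, with a median of -0.49 that was -0.22 without EGF replicate 3 and -0.26 without PBS replicate 2. With OSM present EGF lowered 16 of the 21 and raised 0. SOCS3 was at 1.2, 1.83 and 1.44 CPM in the PBS libraries, 1.52, 1.02 and 1.32 CPM with EGF, 169, 182 and 143 CPM with OSM and 86, 82.2 and 90.4 CPM with EGF+OSM. It was near PBS with EGF, high with OSM and intermediate with the pair, and the EGF effect with OSM was -0.94 ± 0.11 (SE) (edgeR adjusted p 1.2e-07). Its departure of -0.70 ± 0.25 (SE) (edgeR adjusted p 0.032) lost the call without PBS replicate 1 or 3, EGF replicate 1 or 3, or EGF+OSM replicate 2 (adjusted p up to 0.14).

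TIMP1, an inhibitor of metalloproteinases, was at 157, 149 and 153 CPM in the PBS libraries, 726, 683 and 709.9 CPM with EGF, 2214, 1957 and 2487 CPM with OSM and 1276, 1173 and 1106 CPM with EGF+OSM. The pair lay between the single ligands in every library, and the departure was -3.11 ± 0.12 (SE) (edgeR adjusted p 5.7e-15). STAT3 itself rose from 283 ± 16.4 to 632 ± 72.8 CPM with OSM, was 179 ± 7.42 with EGF and 354 ± 9.45 with the pair. Its departure was not called (-0.18 ± 0.09 (SE), edgeR adjusted p 0.13); a call was made with T0 as baseline (-0.54), without OSM replicate 3 (-0.27) and on the linear scale (-0.58). SOCS1, another JAK inhibitor, went the other way, from 5.61 ± 0.428 CPM in PBS to under 1 CPM in each treated group. The other members above the sum were MUC1 (1.04) and BCL6 (0.81).

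Acute-phase and complement genes (19 tested) had 6 below and 0 above (12 below and 2 above with T0). OSM raised 15 of them, EGF lowered 13, and EGF lowered 17 when OSM was present, by a median of -2.47. C1S, a complement protease, was at 10.3, 10.4 and 10.1 CPM in the PBS libraries, 1.16, 1.02 and 0.88 CPM with EGF, 111, 143 and 99 CPM with OSM and 4.39, 6.29 and 7.46 CPM with EGF+OSM. OSM was highest, and the pair was under PBS in every library; the departure was -0.95 (edgeR adjusted p 0.012; 0.058 without EGF replicate 1). SERPING1, which inhibits C1, was at 15.5 ± 3.56 CPM with OSM and 2.2 ± 0.837 with the pair. SERPINA3, a secreted protease inhibitor, was named after its values were seen. It averaged 587 ± 107 CPM with PBS, 73.1 ± 17.8 under EGF, 2806 ± 1009 under OSM and 446 ± 131 under both, a departure of 0.35 ± 0.44 (SE) that was not called (edgeR adjusted p 0.59).

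Proliferation genes rose with each ligand, and the pair gained little over EGF alone but more over OSM alone. All 30 mitosis genes tested were raised by EGF and by OSM, and all 30 departed below the sum, with a median of -3.27 and a range from -4.16 to -1.43. The median log2 fold change was 4.11 with EGF, 3.44 with OSM and 4.36 with the pair. Adding OSM to EGF changed 0 of the 30 by edgeR's test. Adding EGF to OSM raised 28, and the median EGF effect with OSM was 0.91.

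NUSAP1, which bundles spindle microtubules, was at 2.05, 1.36 and 1.86 CPM in the PBS libraries, 49, 50.6 and 56.1 CPM with EGF, 34.2, 32.1 and 46.5 CPM with OSM and 62.1, 59.8 and 65.3 CPM with EGF+OSM. The pair was over every library of either ligand alone, though the difference from EGF was not called (edgeR adjusted p 0.4). The departure was -4.16 ± 0.37 (SE) (edgeR adjusted p 2.1e-08). Of 31 DNA replication and G1/S genes, 30 departed below (median -1.84). The DNA replication factor MCM10 averaged 0.952 ± 0.111 CPM with PBS, 53 ± 2.86 under EGF, 18.8 ± 5.97 under OSM and 65.1 ± 5.4 under both (SD, n = 3). With T0 as baseline the medians were -0.71 for mitosis, where 16 of 30 were called below, and -0.68 for DNA replication, where 23 of 31 were. On the linear scale 15 of 30 mitosis genes and 13 of 31 replication genes were below the sum.

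Ribosome biogenesis genes behaved differently: 20 of 30 departed below, by a median of -0.39, yet 23 of 30 were higher with the pair than with either ligand. NOP56, a core protein of small nucleolar ribonucleoproteins, averaged 88.9 ± 1.12 CPM with PBS, 245 ± 7.63 under EGF, 178 ± 12.1 under OSM and 312 ± 17 under both (SD, n = 3). On the linear scale 6 of 30 were below the sum and 0 above.

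**Figure D3:**
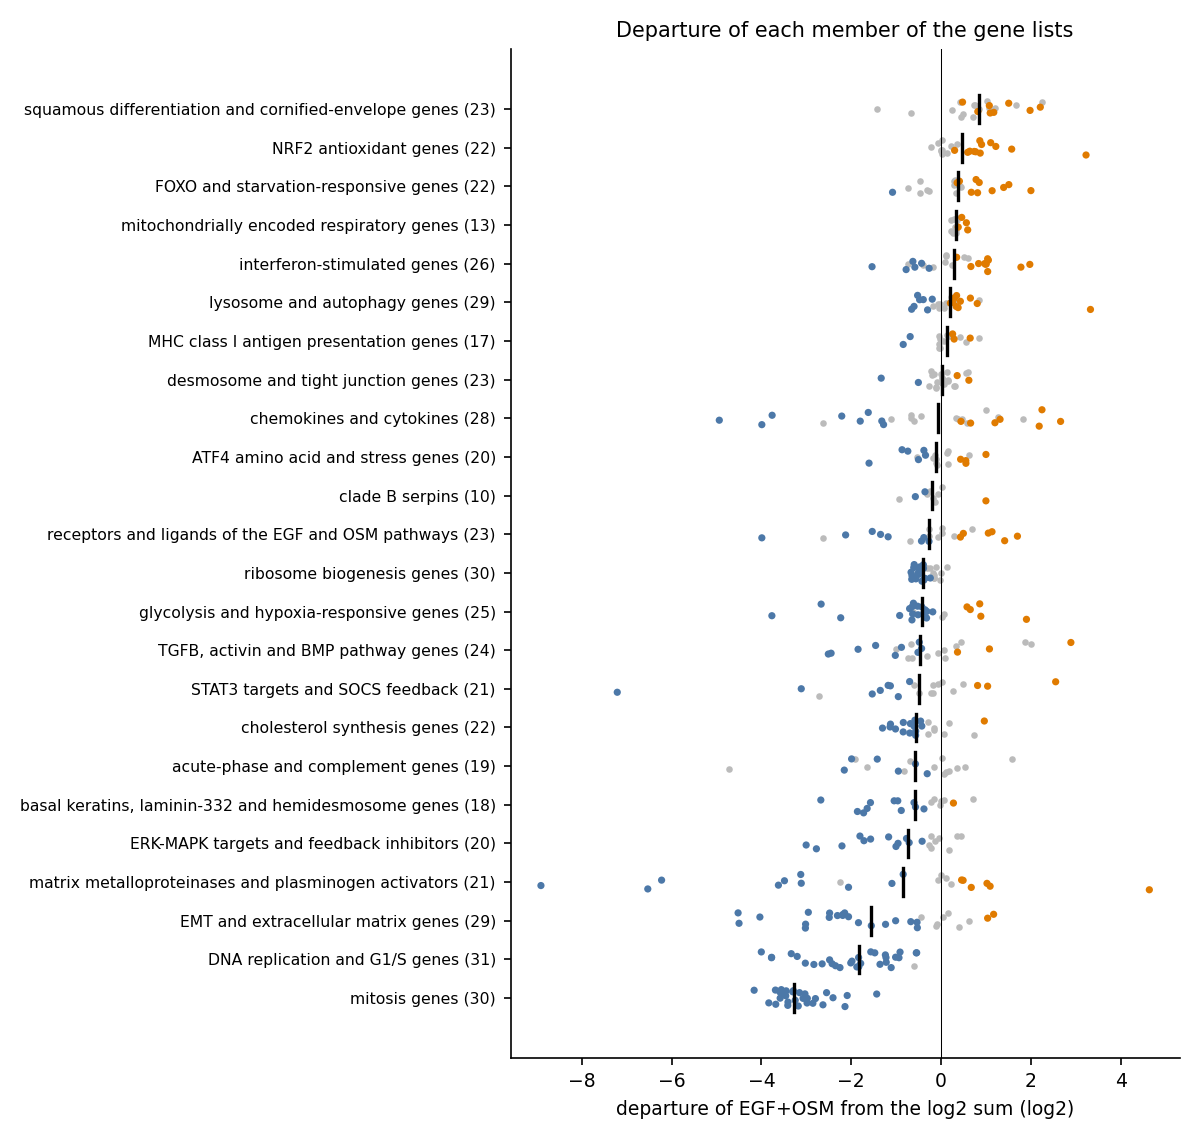
Departure (log2) of every tested member of 24 gene lists, with the number tested in brackets; orange and blue points were called above and below the sum, grey points were not called, and bars are medians. Mitosis (-3.27), DNA replication (-1.84) and matrix genes (-1.55) lie lowest, and squamous genes (0.85) highest.

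Matrix genes of epithelial-mesenchymal transition had the lowest median departure after the proliferation lists. Of 29 tested, 20 departed below and 2 above, with a median of -1.55 (-1.23 with T0, where 19 were below). EGF raised 18 alone but lowered 15 with OSM, and the median EGF effect was 1.28 alone and -0.40 with OSM. TNC (tenascin-C) was at 14.8, 10.9 and 11.9 CPM in the PBS libraries, 169, 174 and 109 CPM with EGF, 745, 686 and 708 CPM with OSM and 410.4, 413 and 317 CPM with EGF+OSM. The pair lay between EGF and OSM, with a departure of -4.50 ± 0.23 (SE) (edgeR adjusted p 6.2e-12). THBS1 (thrombospondin-1) was at 1027 ± 23.7 CPM with EGF, 346 ± 127 with OSM and 868 ± 102 with both, from 25 ± 3.53 CPM in PBS. The transcription factor TWIST1 and the collagen crosslinker LOX, named as the members above the sum, were lowered by each ligand and departed by 1.17 and 1.04. Summed fibroblast markers were at 135 to 140 CPM in PBS, 54.4 to 65.9 CPM with EGF, 206 to 238 CPM with OSM and 81.6 to 105 CPM with the pair. Most of this was DCN, COL1A1 and FAP, which did not move together. From PBS to OSM, FAP went from 6.34 to 128 CPM, DCN from 91.5 to 72.6 CPM and COL1A1 from 38.7 to 25.9 CPM. The part of these markers in the matrix results was not tested.

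Matrix proteases and plasminogen activators (21 tested) had 10 below and 6 above; the median of -0.84 was -0.03 with T0. Basal keratins, laminin-332 and hemidesmosome genes (18 tested) had 11 below and 1 above, that one being KRT5 (0.27). LAMB3, a laminin-332 chain, was at 380.1, 357 and 350.4 CPM in the PBS libraries, 2038, 1829.8 and 1638 CPM with EGF, 1216, 1053 and 1168 CPM with OSM and 1921, 1548 and 1316 CPM with EGF+OSM. The libraries of the pair overlapped those with EGF alone and lay over every OSM library, and the departure was -1.86 ± 0.13 (SE) (edgeR adjusted p 2.0e-10). LAMA3, another laminin chain, departed by -1.73. Clade B serpins (10 tested) had 2 below, SERPINB5 (-0.57) and SERPINB6 (-0.36), or 4 without OSM replicate 1. The 1 above was SERPINB2 (1.00), which inhibits plasminogen activators; with T0 its departure was 0.30 (adjusted p 0.31).

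Squamous differentiation genes were lowered by both ligands: EGF lowered all 23 tested and OSM 22. Departures were called above in 8 and below in 0, with a median of 0.85. Only 3 were called without PBS replicate 3, EGF replicate 1 or EGF+OSM replicate 2, 4 without OSM replicate 3, and 5 without OSM replicate 1 or EGF+OSM replicate 1. KRT10, a suprabasal keratin, averaged 3165 ± 694 CPM with PBS, 212 ± 47.3 under EGF, 66 ± 13 under OSM and 20.5 ± 0.709 under both (SD, n = 3). The pair was under every single-ligand library, so that the departure of 2.21 ± 0.37 (SE) (edgeR adjusted p 8.6e-05) is a shortfall of a large fall. With T0 in place of PBS the median was -0.27 and KRT10 departed by -0.50. FLG (filaggrin) averaged 16.1 ± 2.04 CPM with PBS, 1.59 ± 0.05 under EGF, 6.37 ± 0.87 under OSM and 1.8 ± 0.136 under both (SD, n = 3); OSM added nothing that passed the test to EGF (edgeR adjusted p 0.46).

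Desmosome and tight junction genes came closest to adding. Of 23 tested, 2 departed in each direction, a total of 17.4% beside 36.5% of all genes, and the median was 0.01. With T0 6 were below, and 4 were above without OSM replicate 2 or EGF+OSM replicate 3. EGF lowered 16, OSM 17, and the pair was below both single ligands in 14. CLDN1, a tight junction claudin, was an exception and averaged 63.9 ± 11.6 CPM with PBS, 81 ± 10.8 under EGF, 73.6 ± 16.2 under OSM and 37 ± 10.4 under both (SD, n = 3), a departure of -1.33 ± 0.29 (SE) (edgeR adjusted p 0.001) with neither ligand alone lowering it. PKP3, a plakophilin, also lay below (-0.51). The tricellular junction gene MARVELD2 lay above (0.62).

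FOXO and starvation-responsive genes (22 tested) had 10 above and 1 below (2 below without OSM replicate 3 and 3 without EGF+OSM replicate 1), with a median of 0.38 that was 0.01 with T0. TSC22D3, a FOXO and glucocorticoid target, averaged 383 ± 11.6 CPM with PBS, 26.4 ± 1.52 under EGF, 43.6 ± 9.91 under OSM and 12 ± 1.76 under both, and PDK4, which restrains pyruvate oxidation, averaged 480.3 ± 37.3 CPM with PBS, 21.2 ± 1.73 under EGF, 58.6 ± 13.1 under OSM and 7.36 ± 1.54 under both (SD, n = 3). In both the pair was lowest. The member below the sum was ZFP36L2 (-1.08), which promotes mRNA decay. NRF2 antioxidant genes (22 tested) had 12 above and 0 below, with a median of 0.47, and 0.77 with T0. GPX2, a glutathione peroxidase, averaged 74.9 ± 6.45 CPM with PBS, 1.92 ± 0.345 under EGF, 1.63 ± 0.325 under OSM and 0.396 ± 0.103 under both (SD, n = 3), a departure of 3.23, and TXNRD1, thioredoxin reductase, was lowered by EGF, by OSM and by both (departure 1.22). Mitochondrially encoded genes (13 tested) had 4 above, MT-ND1, MT-ND2, MT-ND3 and MT-CO1 (0.38 to 0.59), and from 3 to 12 as single libraries were left out (12 without EGF replicate 1).

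Cholesterol synthesis genes (22 tested) had 14 below and 1 above, TM7SF2 (0.96), with a median of -0.57, but 3 below and a median of -0.06 with T0. HMGCS1, an early enzyme of the pathway, averaged 61.6 ± 8.18 CPM with PBS, 245 ± 14.2 under EGF, 107 ± 26 under OSM and 193 ± 21.6 under both (SD, n = 3), a departure of -1.14 that was -0.31 and not called with T0 (adjusted p 0.37). Glycolysis and hypoxia-responsive genes (25 tested) had 17 below and 5 above: SLC2A1, HK1, ALDOC, P4HA1 and ADM. Adding OSM to EGF raised 24 of the 25. EGLN3, a hypoxia-induced prolyl hydroxylase, averaged 0.625 ± 0.0879 CPM with PBS, 1.98 ± 0.179 under EGF, 52.4 ± 4.94 under OSM and 25.9 ± 6.53 under both (SD, n = 3), a departure of -2.67. ADM (adrenomedullin), which signals through CALCRL, was at 18.4, 17.8 and 16.4 CPM in the PBS libraries, 7.16, 7.01 and 7.97 CPM with EGF, 13.1, 14.9 and 10.8 CPM with OSM and 23.8, 20.5 and 16.7 CPM with EGF+OSM; each ligand lowered it and the pair did not, a departure of 1.90 ± 0.18 (SE) (edgeR adjusted p 7.0e-09).

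ATF4 stress genes (20 tested) had 6 below and 4 above (3 and 9 with T0), the latter ATF4, DDIT3, DDIT4 and PSAT1. Lysosome and autophagy genes (29 tested) had 7 below and 10 above, the latter 6 without EGF replicate 1, OSM replicate 1 or 3, or EGF+OSM replicate 2. PHGDH, the first enzyme of serine synthesis, departed by -1.60, and by 0.83 (adjusted p 0.0019) with T0. GPNMB, a lysosome-associated glycoprotein, averaged 89.6 ± 8.76 CPM with PBS, 3.69 ± 0.589 under EGF, 4.34 ± 1.39 under OSM and 1.82 ± 0.38 under both (SD, n = 3), a departure of 3.33.

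Interferon-stimulated genes (26 tested) had 11 above and 6 below, with a median of 0.29. IFIT1 was lowered from 7.14 ± 0.753 CPM to 1.28 ± 0.341 by EGF, 1.46 ± 0.423 by OSM and 1.03 ± 0.187 by the pair, whereas IFITM1 rose to 9.82 ± 1.47 CPM with OSM and was at 2.14 ± 0.503 with the pair (departure -1.54, and -0.70 with T0, adjusted p 0.19). Among MHC class I genes (17 tested) 3 were above (HLA-E, B2M and ERAP1) and 2 below (CALR and PDIA3); without PBS replicate 1, OSM replicate 1 or OSM replicate 3 just 1 was above. TGFB, activin and BMP pathway genes (24 tested) had 9 below and 3 above (14 and 1 with T0). INHBA, an activin subunit, was at 13.8 ± 2.06 CPM with EGF and 1.46 ± 0.572 with the pair, and TGFBR3, a TGFB co-receptor, fell in all treated groups (departure 2.89). The others above were BMP2 (1.08) and SMURF1 (0.37).

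Chemokines and cytokines (28 tested) split into 7 above and 8 below; the median was -0.06, and 0.41 with 4 members of 3 counts or fewer at their bounds, -0.59 without PBS replicate 2 and -0.30 without OSM replicate 3. CCL20 averaged 0.861 ± 0.11 CPM with PBS, 3.4 ± 0.0772 under EGF, 9.51 ± 1.22 under OSM and 8.08 ± 0.665 under both and IL24 averaged 0.0775 ± 0.0677 CPM with PBS, 0.389 ± 0.0195 under EGF, 10.5 ± 2.58 under OSM and 3.72 ± 0.982 under both (SD, n = 3), both highest with OSM. EGF changed IL24 by -1.49 ± 0.25 (SE) with OSM present and changed CCL20 by -0.24, not called (edgeR adjusted p 1.8e-05 and 0.11). CXCL14 was lowest with EGF and with the pair (departure 2.25, and 1.27 with T0, adjusted p 0.073). CXCL3 and CSF3, neutrophil attractant and growth factor, were named after their values were seen. CXCL3 was at 0.949, 0.861 and 1.05 CPM in the PBS libraries, 0.914, 0.699 and 0.733 CPM with EGF, 0.654, 0.797 and 0.999 CPM with OSM and 4.58, 4.19 and 4 CPM with EGF+OSM. Neither ligand alone changed it by the test, and all 3 libraries of the pair were over all others, with a departure of 2.66 ± 0.30 (SE) (edgeR adjusted p 1.8e-07). CSF3 averaged 0.766 ± 0.196 CPM with PBS, 14.2 ± 2.51 under EGF, 10.5 ± 2.97 under OSM and 62.3 ± 2.49 under both, short of the log2 sum (-1.62) but over the linear sum by 1.38 on the log2 scale (edgeR-based adjusted p 1.5e-07).

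**Figure D4:**
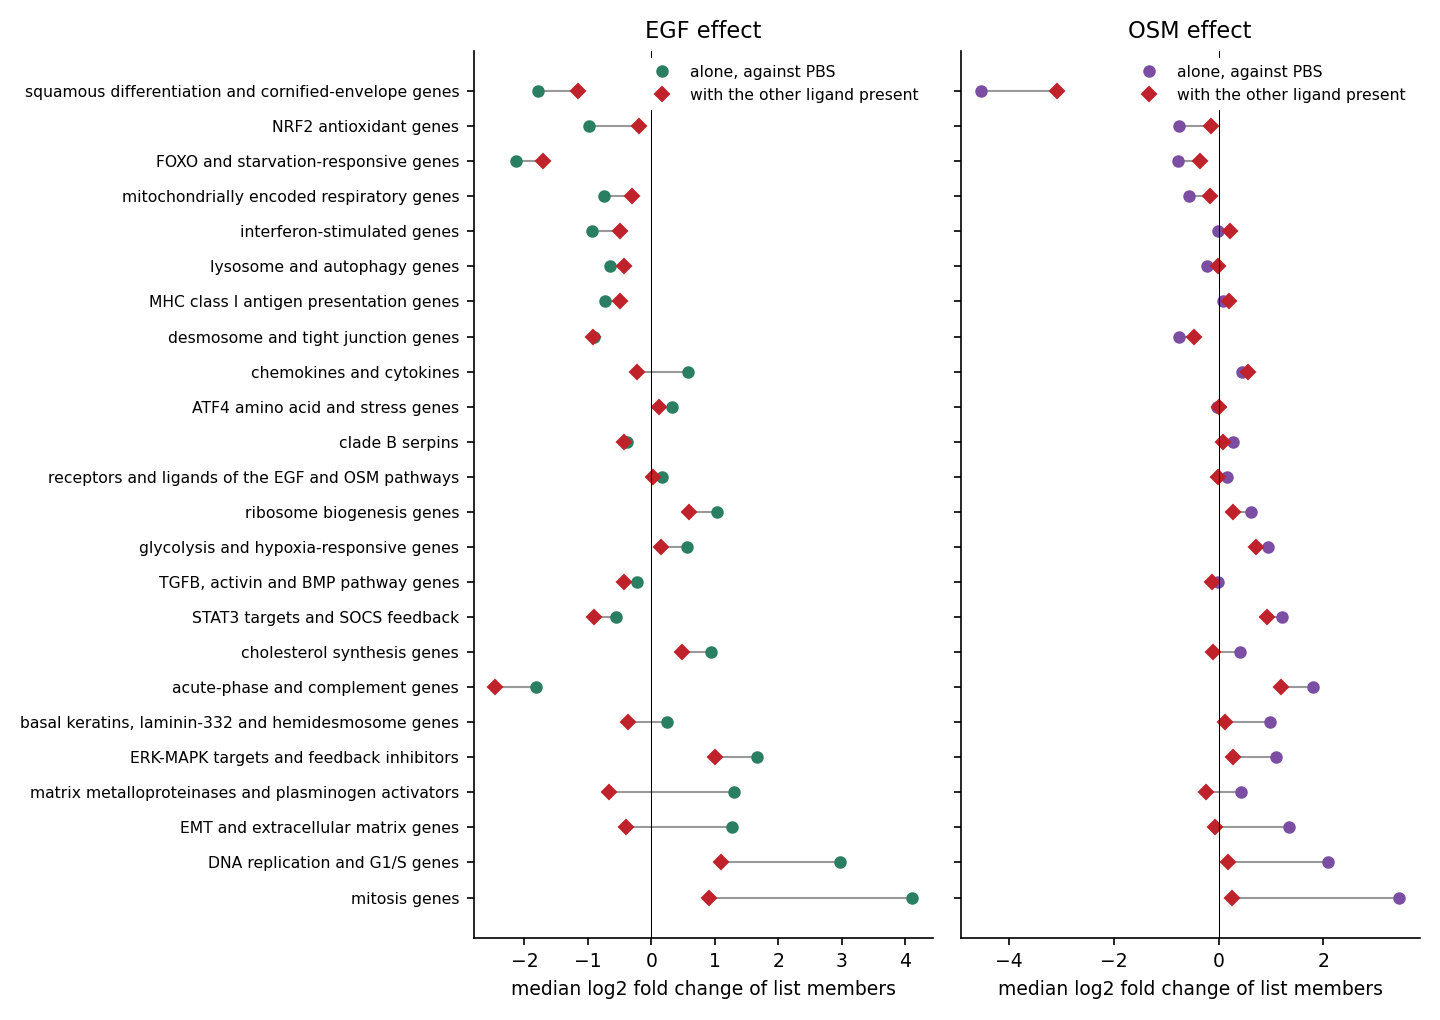
Median log2 fold change of the members of each list for EGF (left) and OSM (right), alone against PBS (circles) and with the other ligand present (diamonds). The EGF median of matrix genes is 1.28 alone and -0.40 with OSM, and the OSM median of mitosis genes is 3.44 alone and 0.26 with EGF.

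The ligands pulled 713 genes (4.29%) in opposite directions, 517 down with EGF and up with OSM, and 196 the other way. With the pair 355 (49.8%) were called against PBS in the EGF direction, 123 (17.3%) in the OSM direction, and 235 (33%) were not called. AMTN, an enamel and basal-lamina protein, was at 1.15, 1.51 and 1.47 CPM in the PBS libraries, 0.379, 0.859 and 0.367 CPM with EGF, 67.9, 80.0 and 57 CPM with OSM and 0.677, 1.4 and 0.43 CPM with EGF+OSM. OSM alone stood far over all other groups, and the pair overlapped PBS, so that EGF changed it by -6.32 ± 0.26 (SE) with OSM (edgeR adjusted p 2.1e-13). GJA1 (connexin 43) did the same, at 12.9 ± 3.43 CPM with OSM and 0.133 ± 0.031 with both; its departure (edgeR adjusted p 0.026) lost the call without EGF replicate 1 or 3.

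SNCAIP, a synuclein-binding protein, averaged 9.02 ± 0.291 CPM with PBS, 0.482 ± 0.0791 under EGF, 23.4 ± 7.23 under OSM and 5.47 ± 0.593 under both, and ABCA1, the cholesterol exporter, averaged 4.04 ± 1.14 CPM with PBS, 0.0949 ± 0.0196 under EGF, 11.2 ± 3.74 under OSM and 1.33 ± 0.466 under both (SD, n = 3). In both the pair was between EGF and PBS. They departed by 2.13 and 2.28 on the log2 scale, and by -1.44 and -2.44 on the linear scale. With T0 the log2 departure of ABCA1 was 1.25 and not called (adjusted p 0.23).

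The same contrast could be taken in 12 other libraries that shared none with these: TGFB, EGF+TGFB, OSM+TGFB and EGF+OSM+TGFB. There, 5483 genes departed (33%; 14% above, 19.1% below). Of the 6061 genes called without TGFB, 5637 (93%) had the same sign with it, beside 75.6% of all genes, and 3796 were called in the same direction and 43 in the opposite. The difference between the 2 departures was called for 560 genes (3.37%), upwards in 2.11% and downwards in 1.26%. That count moved widely with the method: it was 212 at an adjusted p under 0.01, 900 with DESeq2 and 1190 with the replicate block. With T0 in place of PBS it was 1426, but this is another quantity, because T0 replaced PBS only in the departure without TGFB. The departure with TGFB kept the 24 h TGFB libraries as its baseline, so the T0 count also takes in differences between T0 and PBS. Genes chosen for a departure without TGFB tend to have a smaller one in other libraries by that choice alone, so shares and sizes with TGFB are given as descriptions.

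Of genes that fell short below, 95.7% kept their sign with TGFB, against 60% of those exceeding above and 69.7% of those exceeding below. The departures differed with TGFB in 13 of 43 genes that opposed downwards (30.2%), in 8 of 19 that opposed upwards (42.1%), and in 7.64% of those that fell short below. KANK4 departed by -1.09 with TGFB (edgeR adjusted p of the difference 6.3e-06), LBH by -0.30, FN1 by -2.84 and SLCO2A1 by -0.12. TGFA departed by 0.03 (edgeR adjusted p of the difference 0.0012) and PCDH7 by -0.38. For EGR1 (-2.81), TIMP1 (-2.93) and KDR (4.93) no difference was called (edgeR adjusted p 0.98, 0.66 and 0.64).

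**Figure D5:**
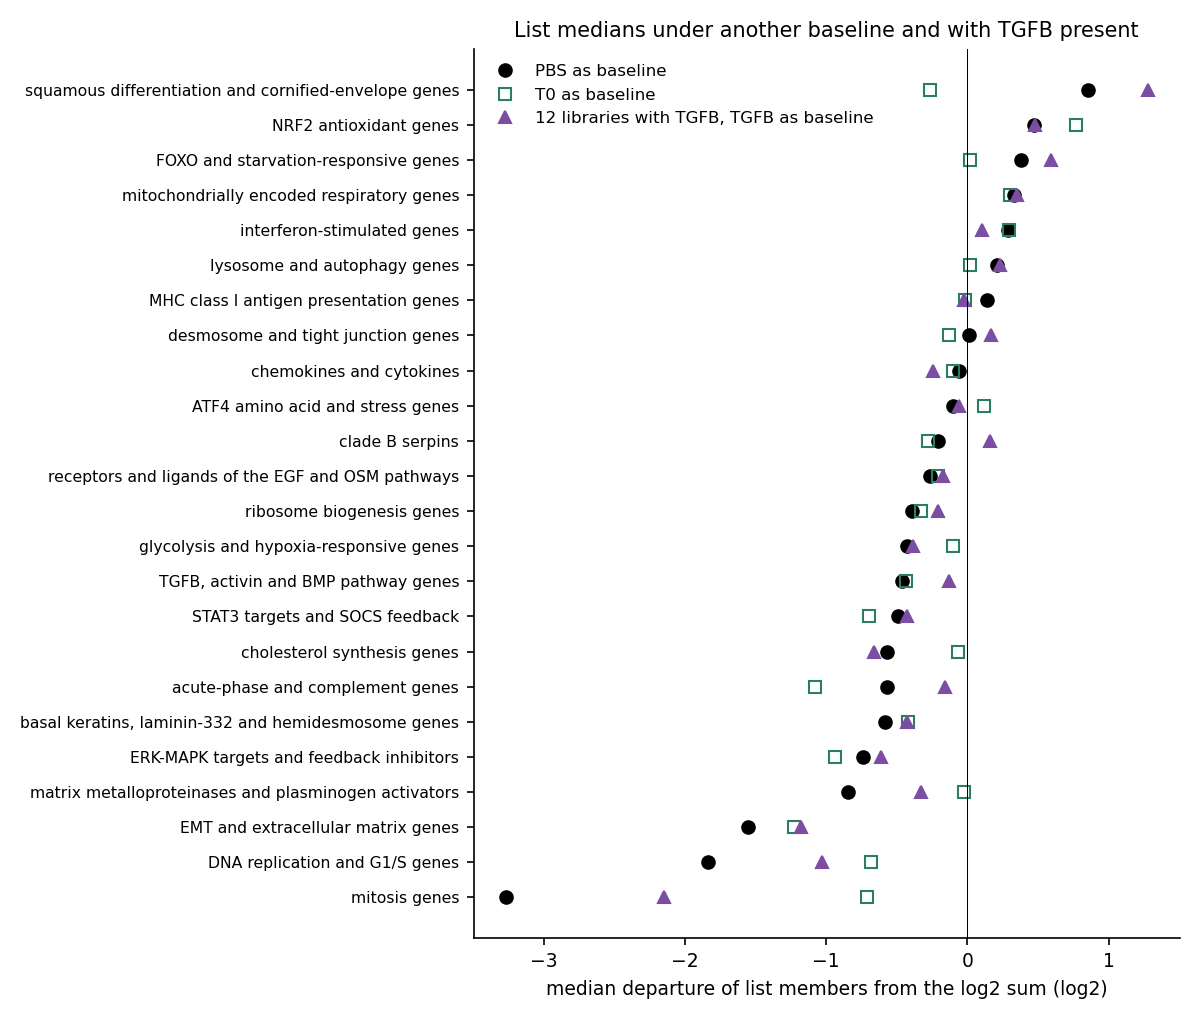
Median departure (log2) of each gene list with PBS as baseline (circles), with T0 as baseline (squares), and in the 12 libraries with TGFB (triangles). Mitosis genes move from -3.27 to -0.71 with T0 and to -2.15 with TGFB, and squamous genes from 0.85 to -0.27 and 1.28.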

How the data were processed

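Polyadenylated RNA was sequenced, and the authors deposited whole-number estimated counts per gene; kallisto 0.46.2, Trim Galore 0.4.3, cutadapt 1.10 and builds GRCh38.p5 and hg38 are named, per the submitters' processing notes, without their roles. No rounding was needed. With edgeR 4.0.16 in R 4.3.3, rows were filtered (filterByExpr by group), scaled by TMM, and fitted over all 27 libraries with 1 mean per group (robust quasi-likelihood); p-values were Benjamini-Hochberg adjusted over 16611 rows and called under 0.05. "Genes" are rows as deposited; fold changes used a prior count of 0.125. Depth was 35.2 to 46.9 M counts, so precision is set mainly by spread between replicates; counting error is a lower limit. The linear departure is log2 of measured over EGF plus OSM minus PBS, with delta-method errors. Members and lists were chosen with earlier results of these data known. Named genes had 1 row, were protein coding and reached 5 CPM in a group: the largest 4 per class and direction, 3 per list and per direction of opposed responses, and 8 pathway genes. Alternatives covered scaling, filter, tool (DESeq2 1.42.0), libraries, replicate block, baseline, thresholds, rows and scale. The model code was tested on simulated data. Some genes that met the rule are not reported here.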

Additional observations from a re-analysis of the deposited data

Results flagged for a closer look

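The departure differed with TGFB present (adjusted p under 0.05 for the difference, quasi-likelihood test of edgeR, Benjamini-Hochberg adjusted) in 20 of 106 genes named by rule and reported; in 18 of them it was smaller in size with TGFB. Over all 16611 genes tested the share was 3.37%. Most of the 106 were named for the size of their departure without TGFB, and that choice by itself makes both a difference and a smaller departure with TGFB more likely, so neither count is read as a result. The following values are the log2 departure with TGFB minus that without it. The difference was upward, towards or past a plain sum, in KANK4 (3.56), LBH (3.42), COL6A3 (2.22), FN1 (1.68), TNC (1.68), ETV5 (1.45), LTBP2 (1.30), PHGDH (1.24), FAP (1.14), SERPINB5 (1.00), COL1A1 (0.96), LAMB3 (0.89), CDH3 (0.77) and CD44 (0.40). It was downward in SLCO2A1 (-3.00), PCDH7 (-1.54), SOCS3 (-1.32), KRT8 (-0.90), NEK7 (-0.67) and IL6ST (-0.40). SOCS3 and IL6ST were the 2 whose departure was larger in size with TGFB. Adjusted p ran from 6.2e-06 to 0.029.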

How the results depend on the processing

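The count of called departures stayed within 1.5 times of 6061 under every alternative except a 2-fold limit. At an adjusted p under 0.01 there were 1583 genes above the sum, 62 exceeding and 23 opposing it, 816 above both single ligands, 467 with opposed single responses (207 called in the EGF direction, 75 in the OSM direction), and 212 differing with TGFB. With a departure of at least 1 on the log2 scale, 1639 were called (491 above, 1148 below), 33 exceeded, 1502 fell short, 23 opposed, and 1201 were called alike with TGFB. Without a filter 39 opposed. With the 12 libraries alone, 932 were above both. On the linear scale 1440 were above. Differences with TGFB numbered 1190 with the replicate block and 900 with DESeq2. They numbered 1426 with T0, which replaced PBS only in the departure without TGFB, so that count is another quantity. Leaving out 1 library gave 96 to 186 exceeding, 33 to 70 opposing and 919 to 1456 above both. Apart from that change of quantity with T0, the cause of these moves was not tested. With T0 in place of PBS the departure reversed in KRT10 (-0.50), STARD4 (0.092), PHGDH (0.83), CA9 (0.47), GLA (0.070) and ERAP1 (-0.16), called only for PHGDH (adjusted p 0.0019; 0.19 to 0.79 for the others), and on the linear scale in TNFRSF6B (0.81), ABCA1 (-2.44), SNCAIP (-1.44), AREG (0.12), ERAP1 (-0.0028) and CD14 (-0.67), called only for ABCA1 (0.00045) and SNCAIP (0.00021); the adjusted p was 0.73 for AREG, 0.996 for ERAP1 and 0.051 for CD14, and TNFRSF6B, with PBS at 0, had no usable error. Deviations from group means correlated at -0.010 to 0.135 between same-numbered libraries (median 0.042, 15 of 18 positive, 3 over 0.1) and at -0.106 to 0.073 between others (median -0.030, 0 of 36 over 0.1); 9 of 12 libraries correlated best with their own number. This is short of the limit for pairing (every pair over 0.1) and is a hint from the data, not the design, that same-numbered libraries share some deviation. With the replicate block 6760 departures were called, the call of STAT3 was gained, and the other 105 named genes kept theirs. Depth limits genes with few counts, such as TMEM265, TNFRSF6B, MMP3, CA9 and NKPD1, whose departures rest on groups at or near 0. For MMP7, MAP7D2 and BEST2 it limits the expected level, which was under 3 counts over the group.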
